A study of Caenorhabditis elegans with 16 samples.

Results

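The genotype by CeMM 15 h interaction asks of each gene whether *hlh-30(lf)* worms responded to 15 h of refeeding with CeMM as wild-type worms did. It is the log2 fold change from starved to refed worms in *hlh-30(lf)* minus the same fold change in wild type, so a value above 0 means a larger rise or a smaller fall in the mutant. CeMM (*C. elegans* maintenance medium) is a chemically defined, bacteria-free liquid diet with glucose as its energy source. It also holds amino acids, nucleic acids, heme, vitamins, salts and β-sitosterol dissolved in a fatty acid ester. The groups were chosen by their labels: wild-type (strain N2) and *hlh-30(lf)* larvae starved for 33 h, and wild-type and *hlh-30(lf)* larvae starved for 33 h and then given CeMM for 15 h. These 4 groups of 2 samples make 8 of the 16 samples of the series. The other 8 samples, fed worms and worms given CeMM for 3 h in both genotypes, entered the same fit and are used for comparison. All were *Caenorhabditis elegans* at the L1 larval stage, hatched from eggs of bleached adults, and starvation took place in M9 buffer at 20 °C. The mutant carried the *tm1978* loss-of-function allele in every cell, and it is represented by a single strain. The libraries were made from total RNA of whole worms in bulk, so fewer cells of a type and less RNA per cell cannot be told apart. No worms starved for a further 15 h were sampled, so refeeding and added time cannot be told apart.

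HLH-30 is the worm counterpart of mammalian TFEB, a basic helix-loop-helix transcription factor that moves to the nucleus when nutrients are scarce and activates genes of lysosomes, autophagy and lipid breakdown. L1 larvae that hatch without food arrest their development and live on stored fat, glycogen and recycled cell content, and they resume growth when food arrives. Fatty acids are broken down in mitochondria and peroxisomes, and worms, unlike mammals, can turn the acetyl-CoA so produced into sugar through the glyoxylate shunt.

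Total counts on genes ranged from 31076031 to 40891427 in the 8 libraries, and 3 counts in a library equalled 0.0734 to 0.0965 CPM, which reflects only counting error. Reads on ribosomal RNA genes took 12.9% of the counts in replicate 2 of wild type after CeMM for 15 h and 3.85% in replicate 1, against 1.18% to 4.79% in the other 6 libraries. Log2 values of replicates correlated with r from 0.989 to 0.995 across genes, which are not independent replicates. Levels are given below as normalised CPM, the count scaled like CPM (counts per 1e6 reads) but with the library's TMM-adjusted size. A gene passed the test where edgeR's quasi-likelihood p, adjusted by Benjamini-Hochberg over the 30177 genes with a count, was 0.05 or lower, and all adjusted p values below are of that kind. These p values rest on the spread between the 2 samples of a group, estimated together over all 8 groups.

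The gene mutated in *hlh-30(lf)*, WBGene00020930, lies on chromosome IV, 4014799 to 4028127, minus strand of WBcel235. It had 662 and 619 normalised CPM in starved wild-type worms and 691 and 528 after CeMM. The *hlh-30(lf)* worms had 747 and 716 when starved and 385 and 370.2 after CeMM. Both refed mutant samples were below all other samples of the 4 groups, and the genotype difference among starved worms, 0.19 on the log2 scale, did not pass the test. The interaction was -0.88 (log2, SE 0.14, adjusted p = 1.8e-05), made up of a change of -0.95 in *hlh-30(lf)* and of -0.07 in wild type. Counts summed over the gene do not resolve the deletion, so the transcript level does not check the label of the starved mutant libraries.

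The interaction was positive for 3135 of 30177 genes (10.4%) and negative for 3616 (12%). At least a 2-fold difference between the genotypes' responses was found for 1727 of the positive (5.72% of all tested) and 1869 of the negative genes (6.19%). Among the positive genes, 974 rose in *hlh-30(lf)* and did not pass the test in wild type, 883 fell in wild type alone by the same test, and 420 rose in both. Another 498 genes (1.65% of all tested) rose in *hlh-30(lf)* and fell in wild type. Among the negative genes, 1189 fell in *hlh-30(lf)* without passing the test in wild type, 824 passed it only as a rise in wild type, and 766 (2.54% of all tested) fell in *hlh-30(lf)* and rose in wild type. Across the 13380 genes with a mean of 1 CPM or more over the 8 samples, the responses of the 2 genotypes, which share no samples, correlated with a Pearson r of 0.42 and a Spearman rho of 0.40, a description across genes. Without replicate 2 of wild type after CeMM, the library with the high ribosomal RNA share, 2915 genes were positive and 3277 negative, and of the genes named by rank only *tts-1* lost its call. Without normalization factors the split changed to 4104 positive and 2537 negative, or 61.8% positive calls in place of 46.4%, and the median interaction of all genes moved from 0 to 0.16. The median level of all tested genes was 0.39 normalised CPM over the 8 samples. After a filter on low counts, 3395 of 17441 genes were positive and 3859 negative, larger shares than among all tested genes. The shares over all tested genes are thus a low mark for lists of expressed genes. Counts of list members given below are to be read beside both sets of shares.

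**Figure D1:**
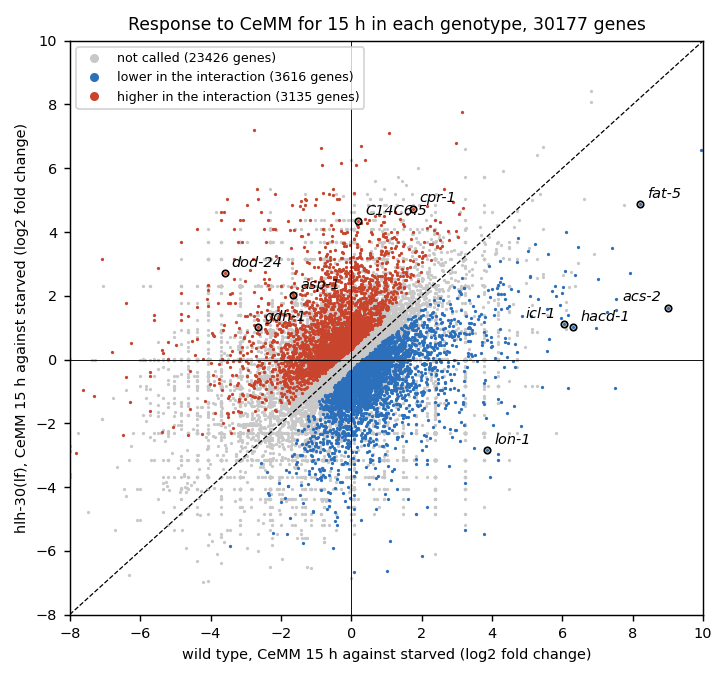
Log2 fold change from starved worms to worms given CeMM for 15 h, in wild type (x axis) and *hlh-30(lf)* (y axis), for 30177 genes, with values beyond the axes drawn at their edge. Genes on the dashed line responded alike; the 3135 red genes lie above it and the 3616 blue genes below it, with *acs-2*, at 9.01 in wild type and 1.62 in *hlh-30(lf)*, among those farthest from it.

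The interaction set beside the genotypes' levels shows where the difference lay. Of the 3135 positive genes, 2569 (81.9%) were lower in starved *hlh-30(lf)* than in starved wild-type worms, against 19.3% of all tested genes lower and 18.8% higher in that state. After 15 h of CeMM, 947 of them were lower and 772 higher, where 12.4% of all tested genes were lower and 11.7% higher. Their median log2 genotype difference was -1.15 in starved worms and -0.04 after 15 h. The 3616 negative genes showed the mirror image, with 3107 (85.9%) higher in starved *hlh-30(lf)* worms, a median difference of 1.06 there and of 0.07 after 15 h. The starved and 15 h samples define the interaction, so these values describe it and do not test it. In samples that the interaction did not use, the positive genes had a median genotype difference of -0.57 after CeMM for 3 h and of 0.01 in fed worms, and the negative genes had 0.55 and 0.01. Over the 13380 genes at 1 CPM or more, the median absolute genotype difference was 0.12 in fed worms, 0.629 in starved worms, 0.578 after 3 h and 0.328 after 15 h of CeMM.

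**Figure D2:**
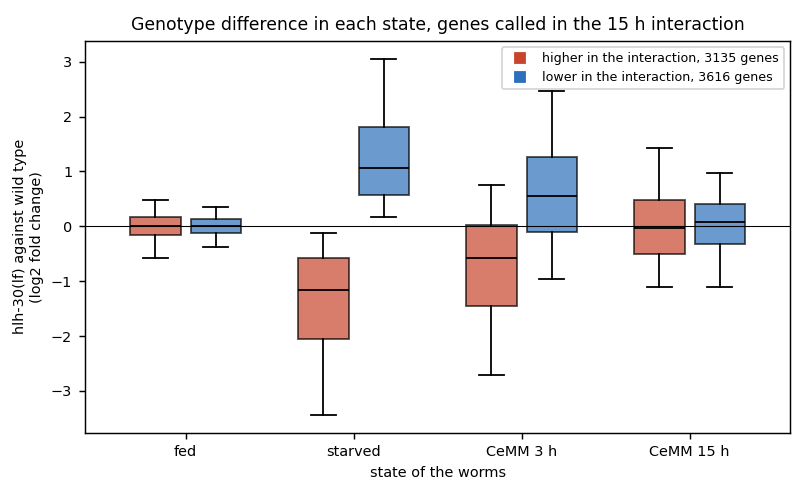
Log2 fold change of *hlh-30(lf)* against wild type (y axis) in fed, starved, 3 h and 15 h CeMM worms (x axis), for the 3135 positive (red) and 3616 negative genes (blue) of the 15 h interaction; boxes span the quartiles with the median, and whiskers run from the 10th to the 90th percentile. The median difference of the positive genes was -1.15 in starved worms and -0.04 after 15 h of CeMM; by construction these 2 states differ.

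Genes of the glyoxylate shunt and of sugar synthesis rose in wild type and mostly did not in *hlh-30(lf)*. All 6 tested members had a negative interaction, with a median of -1.46, against 12% negative and a median of 0 over all tested genes. In wild type 5 of the 6 rose, where 15.4% of all tested genes rose and 13.8% fell, and in *hlh-30(lf)* 1 rose and 1 fell, where 15.6% of all rose and 15.1% fell. *icl-1* (chromosome V, 724207 to 728103, minus strand), the bifunctional enzyme of the glyoxylate shunt, had 44.0 and 81.2 normalised CPM in starved wild-type worms and 4496 and 3844 after CeMM. In *hlh-30(lf)* it had 117 and 118.6 when starved and 308 and 198 after CeMM. The refed wild-type samples were far above the other 6, and the refed mutant samples were above the starved mutant ones without passing the test. The interaction was -4.96 (log2, SE 0.54, adjusted p = 1.4e-04), from 6.06 in wild type and 1.1 in *hlh-30(lf)*. *pyc-1*, pyruvate carboxylase, went from 149 and 158 to 712 and 666 normalised CPM in wild type and from 83.7 and 111 to 121 and 109 in *hlh-30(lf)*, an interaction of -1.93 (log2, SE 0.16, adjusted p = 6.2e-09). *fbp-1*, fructose-bisphosphatase, had an interaction of -2.31 (log2, SE 0.12, adjusted p = 6.1e-14), and that of *mdh-1*, malate dehydrogenase, was -0.99 (log2, SE 0.13, adjusted p = 6.3e-07). The phosphoenolpyruvate carboxykinases *pck-1* and *pck-2* differed less, with -0.87 and -0.39.

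Several of the most negative interactions belonged to genes that rose many-fold in wild type. *acs-2* (chromosome V, 15567394 to 15569889, plus strand), a mitochondrial acyl-CoA synthetase, had 1.5 and 2.39 normalised CPM in starved wild-type worms, 1061 and 955 after CeMM, 1.32 and 0.889 in starved *hlh-30(lf)* worms and 5.69 and 1.25 after CeMM. One refed mutant sample lay within the range of the starved mutant samples and the other above it, and the refed wild-type samples stood far above the rest. Its interaction was -7.39 (log2, SE 1.02, adjusted p = 6.4e-04). *hacd-1*, a predicted hydroxyacyl-CoA dehydrogenase, rose from 3.29 and 2.55 to 236 and 227 in wild type and from 3.5 and 2.54 to 7.50 and 4.70 in *hlh-30(lf)*. Its interaction was -5.29 (log2, SE 0.36, adjusted p = 8.9e-07). *fmo-2*, a flavin-containing monooxygenase, was at 96.6 and 108 normalised CPM in refed wild-type worms and at 0.367 and 0.208 in refed *hlh-30(lf)* worms, an interaction of -6.30 (log2, SE 0.84, adjusted p = 3.9e-04). *acer-1* went from 57.0 and 56.4 to 1351 and 1500.3 in wild type and stayed between 65.5 and 82.9 in all 4 mutant samples, an interaction of -4.88 (log2, SE 0.14, adjusted p = 3.2e-19). F21C10.10 rose in both genotypes, to 732 and 738 in wild type and 18.9 and 13.8 in *hlh-30(lf)*. After CeMM for 3 h, in samples outside the interaction, *acs-2* had 149.8 and 158 normalised CPM in wild type and 1.02 and 1.16 in *hlh-30(lf)*, and *icl-1* had 2011 and 2438 in wild type against 116 and 119.8 in *hlh-30(lf)*. Both genes were thus higher in both refed wild-type samples already at 3 h. In fed worms *acs-2* was at 3.98 and 6.08 in wild type against 2.19 and 2.40 in *hlh-30(lf)*, and *icl-1* was at 325 and 537 against 236 and 353, so that the fed groups of *icl-1* overlapped.

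**Figure D3:**
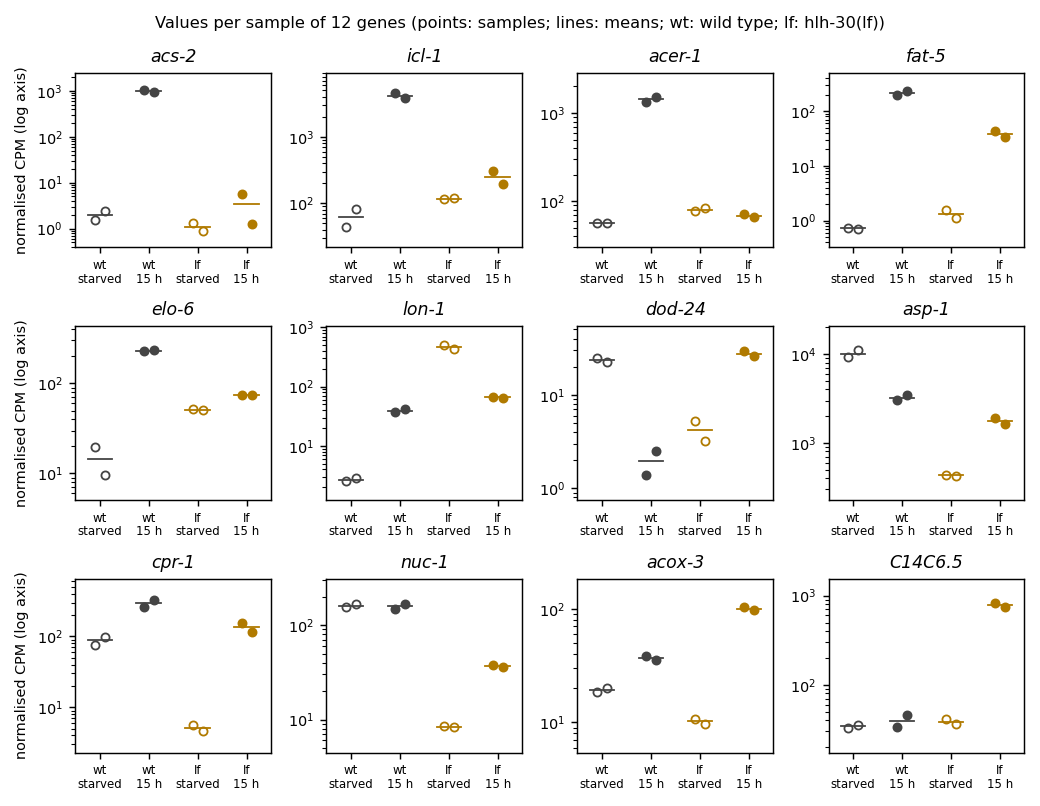
Normalised CPM (y axes, logarithmic) of 12 genes in the 2 samples of each group (points), with group means (lines), for starved (open) and CeMM 15 h samples (filled) of wild type (dark grey) and *hlh-30(lf)* (ochre). *icl-1* is at 4496 and 3844 normalised CPM in the refed wild-type samples and at most 308 in the other 6, and *C14C6.5* is at 829 and 739 in the refed mutant samples and at most 45.5 in the other 6.

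Genes for the unsaturated and long-chain fatty acids of membranes and stored fat, mostly desaturases and elongases, rose in wild type more often than in *hlh-30(lf)*. The list also holds *fasn-1*, *pod-2*, *let-767* and *sbp-1*. Of 20 tested members 16 had a negative and 0 a positive interaction (0 also at an unadjusted p under 0.05), with a median of -1.41. In wild type 14 rose and 1 fell, where 15.4% of all tested genes rose and 13.8% fell. In *hlh-30(lf)* 3 rose and 8 fell, where 15.6% of all tested genes rose and 15.1% fell. *fat-5*, a palmitoyl-CoA desaturase, rose in both genotypes, from 0.737 and 0.694 to 196 and 231 normalised CPM in wild type and from 1.56 and 1.12 to 43.7 and 34 in *hlh-30(lf)*. All starved samples were below all refed ones, and the refed mutant samples were below the refed wild-type samples. The interaction was -3.35 (log2, SE 0.33, adjusted p = 9.3e-07). *fat-6*, a stearoyl-CoA desaturase, fell in both, with 317 and 440.5 normalised CPM in refed wild type and 69.2 and 55.9 in refed *hlh-30(lf)*, and an interaction of -1.89 (log2, SE 0.24, adjusted p = 1.2e-04). The polyunsaturated fatty acid desaturases *fat-1*, *fat-2*, *fat-3* and *fat-4* had interactions of -1.15, -1.32, -1.53 and -1.36. Each of the 4 rose in wild type, by 1.78, 1.42, 1.44 and 1.81 on the log2 scale. *elo-5* and *elo-6* encode elongases of branched-chain fatty acids. *elo-6* went from 19.7 and 9.55 to 226 and 232 normalised CPM in wild type and from 51.6 and 50.4 to 73.8 and 74.0 in *hlh-30(lf)*, an interaction of -3.44 (log2, SE 0.38, adjusted p = 1.4e-04). *elo-5* moved in opposite directions, from 22 and 11.8 to 62.6 and 79.1 in wild type and from 126 and 113 to 25.3 and 21.1 in *hlh-30(lf)*, with an interaction of -4.44 (log2, SE 0.40, adjusted p = 4.0e-05). Its exons overlap those of F41H10.3 on the other strand by 73 bases, and the strand setting of the counting is not given in the sources used here. Of the same list, *fasn-1*, fatty acid synthase, and *pod-2*, acetyl-CoA carboxylase, rose in wild type and fell in *hlh-30(lf)*, with interactions of -2.27 (log2, SE 0.28, adjusted p = 2.5e-04) and -1.39 (log2, SE 0.15, adjusted p = 1.3e-07).

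Genes of fatty acid activation and mitochondrial oxidation were split. Of 35 tested members 19 were lower and 8 higher in the interaction, with a median of -0.70. In wild type 26 of them rose, and in *hlh-30(lf)* 22 did, against 15.4% and 15.6% of all tested genes. *acs-19*, an acyl-CoA synthetase family member, went from 78.1 and 70.3 to 547 and 576 normalised CPM in wild type and from 168 and 178 to 96.0 and 90.8 in *hlh-30(lf)*, an interaction of -3.81 (log2, SE 0.12, adjusted p = 6.9e-19). *ech-7*, of the enoyl-CoA hydratase family, fell in both genotypes and further in the mutant, where it started higher, with an interaction of -1.63 (log2, SE 0.21, adjusted p = 5.9e-05). On the other side, the acyl-CoA dehydrogenases *acdh-7* and *acdh-10* rose more in *hlh-30(lf)*, with 1.11 and 0.90, as did the carnitine palmitoyltransferase gene *cpt-6*, with 2.21. For *cpt-1*, another gene of that family, the interaction of 0.36 (log2, SE 0.27, adjusted p = 0.48) did not pass the test.

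Peroxisomal oxidation, which shortens very long fatty acids and the side chains of ascaroside pheromones, went the other way. Of 16 tested members 10 had a positive and 1 a negative interaction, with a median of 0.80, against 10.4% positive over all genes. Most of these genes rose in both genotypes, 12 in wild type and 14 in *hlh-30(lf)*, against 15.4% and 15.6% of all tested genes. At 15 h 13 were higher in the mutant, where 11.7% of all tested genes were. *acox-3*, an acyl-CoA oxidase family gene, had 18.6 and 20.01 normalised CPM in starved and 38.6 and 35.2 in refed wild-type worms, and 10.8 and 9.78 in starved and 103 and 98.6 in refed *hlh-30(lf)* worms. The starved mutant samples were the lowest and the refed mutant samples the highest of the 8. The interaction was 2.36 (log2, SE 0.15, adjusted p = 2.2e-12). *acox-1.1*, the acyl-CoA oxidase that acts in ascaroside synthesis, went from 11.8 and 15.1 to 111 and 114 in wild type and from 7.51 and 8.37 to 201 and 178 in *hlh-30(lf)*, an interaction of 1.52 (log2, SE 0.15, adjusted p = 4.0e-09). The next enzymes of the same spiral, the hydratase *maoc-1*, the dehydrogenase *dhs-28* and the thiolase *daf-22*, had interactions of 2.32, 0.91 and 1.2. *prx-5*, the receptor that brings enzymes into peroxisomes, had 0.81. *prx-3*, a gene of peroxisome assembly that is not in the list, had 189.9 and 183 normalised CPM in starved *hlh-30(lf)* worms and 34.2 and 34.2 after CeMM. It went from 13.1 and 11.1 to 31.2 and 30.01 in wild type, an interaction of -3.78 (log2, SE 0.22, adjusted p = 1.7e-08).

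The V-ATPase, the proton pump that acidifies lysosomes, had more positive than negative interactions. Of the 9 tested genes of its peripheral V1 sector 6 had a positive and 0 a negative interaction (0 also at an unadjusted p under 0.05), with a median of 0.44. Of the 12 genes of its membrane V0 sector 7 were positive and 2 negative, with a median of 0.48. The summed V1 level was 2261 and 2320.3 normalised CPM in starved wild-type samples, 3705 and 3814 after CeMM, 2463 and 2378 in starved *hlh-30(lf)* samples and 5802 and 5549 after CeMM. The sums rose in both genotypes and were highest in the refed mutant samples. *vha-6* (chromosome II, 11435211 to 11438464, minus strand), the V0 subunit of the apical gut membrane, differed most. It had 711 and 814 normalised CPM in starved wild-type worms and 437 and 452 after CeMM. In *hlh-30(lf)* it had 249 and 281 when starved and 563 and 560.3 after CeMM. It thus fell in wild type and rose in *hlh-30(lf)*, with an interaction of 1.86 (log2, SE 0.12, adjusted p = 4.1e-12). The V0 subunit genes *vha-2* and *vha-3* had 0.97 and 1.27, with the split of reads uncertain because both encode the same proteolipid, and the V1 genes *vha-9* and *vha-15* had 0.87 and 0.85. The V0 genes *vha-5* and *vha-7* rose in wild type and did not pass the test in *hlh-30(lf)*, with interactions of -0.77 (log2, SE 0.13, adjusted p = 4.0e-05) and -0.92 (log2, SE 0.16, adjusted p = 5.6e-05). State by state, all 9 V1 genes were higher in the mutant after 15 h, when 11.7% of all tested genes were. After 3 h 7 of the 9 were lower, when 18.6% of all tested genes were. In starved worms 5 were higher and 3 lower, against 18.8% and 19.3% of all tested genes.

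Lysosomal proteases were more often higher than lower in the interaction, from low starved levels in *hlh-30(lf)*. Of 19 tested genes 10 had a positive and 4 a negative interaction, with a median of 0.92. In starved worms 15 of the 19 were lower in the mutant, where 19.3% of all tested genes were. After 15 h again 15 were lower, against 12.4% of all tested genes. *asp-1* (chromosome V, 19049123 to 19050825, minus strand), an aspartyl protease of the gut, had 9232 and 11052 normalised CPM in starved wild-type worms and 3007 and 3437 after CeMM. In *hlh-30(lf)* it had 434 and 428 when starved and 1888 and 1615 after CeMM. It fell in wild type and rose in *hlh-30(lf)*, and all mutant samples remained below all wild-type samples. The interaction was 3.68 (log2, SE 0.16, adjusted p = 1.1e-12). The cathepsin B-like genes *cpr-1* and *cpr-5* rose many-fold in *hlh-30(lf)*. For *cpr-1* the starved mutant had 5.66 and 4.55 and the refed mutant 156 and 114 normalised CPM, an interaction of 2.98 (log2, SE 0.28, adjusted p = 1.7e-05). For *cpr-5* the values were 28.6 and 29.5 in the starved and 167 and 161 in the refed mutant, an interaction of 2.55 (log2, SE 0.24, adjusted p = 7.1e-06). *cpr-9*, of the same family, went from 12.5 and 6.77 to 188 and 167 in *hlh-30(lf)* and was at 86.0 and 112 and then 93.1 and 129 in wild type. *cpr-4* behaved in the reverse way and rose more in wild type, from 12.4 and 18.5 to 483 and 566 normalised CPM against 53.2 and 47.8 to 208 and 191, an interaction of -3.1 (log2, SE 0.24, adjusted p = 1.5e-06). *cpz-1*, cathepsin Z, and *cpl-1*, cathepsin L, had interactions of 0.92 (log2, SE 0.15, adjusted p = 1.5e-05) and 0.55 (log2, SE 0.15, adjusted p = 0.0075).

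Other lysosomal genes were mixed. Among the 8 lysosomal lipase genes 4 were positive, or 2 without replicate 1 of refed *hlh-30(lf)*, and 1 negative. *lipl-2* had 75.8 and 86.1 normalised CPM in starved and 68.3 and 76.5 in refed wild-type worms, and 0.479 and 0.68 in starved and 4.71 and 4.1 in refed *hlh-30(lf)* worms. The mutant level thus rose after CeMM and stayed below every wild-type sample, with an interaction of 3.06 (log2, SE 0.23, adjusted p = 4.8e-11). *lipl-3* was at 28.1 and 28.3 normalised CPM in refed wild-type worms and, in both mutant groups, at or under the level of 3 counts. Of 24 other hydrolases and membrane proteins of lysosomes 10 were positive and 6 negative. The glucocerebrosidase gene *gba-1* went from 3.89 and 4.60 to 69.5 and 68.2 normalised CPM in *hlh-30(lf)* and from 11.8 and 18 to 52.8 and 47.0 in wild type, an interaction of 2.27 (log2, SE 0.24, adjusted p = 7.3e-06). *nuc-1*, a DNase of lysosomes, rose from 8.44 and 8.31 to 37.7 and 35.9 in *hlh-30(lf)* while the 4 wild-type samples lay between 149 and 168. Its interaction was 2.16 (log2, SE 0.13, adjusted p = 7.3e-13). The sphingomyelinase gene *asm-3* fell in wild type, from 58.8 and 73.1 to 4.62 and 3.92, and was at 0.569 and 0.654 and then 1.32 and 0.909 in *hlh-30(lf)*. Negative interactions included the mannosidase gene *aman-1* with -2.29 and the cystine transporter gene *ctns-1* with -0.51.

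Autophagy genes showed no common direction, with 5 positive and 6 negative interactions among 26 and a median of 0.06. The most negative members were high in the starved mutant. *sqst-1*, the autophagy receptor p62, had 2272 and 2293 normalised CPM in starved *hlh-30(lf)* worms and 517 and 497 after CeMM, against 599 and 679 in starved and 433 and 456 in refed wild-type worms. *lgg-1*, of the Atg8 family, had 999.9 and 804 and then 251 and 241 in *hlh-30(lf)* and 639.7 and 649.8 and then 539 and 676 in wild type. Both fell in the mutant, with interactions of -1.65 (log2, SE 0.11, adjusted p = 5.2e-12) and -1.79 (log2, SE 0.15, adjusted p = 1.0e-08). *bec-1*, the worm Beclin, had -1.18 and *atg-18* -0.67. On the other side stood *atg-16.2*, with 1.24, and *atg-9*, with 0.57.

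Glycolysis and trehalose and glycogen metabolism also had more negative than positive interactions, whereas the tricarboxylic acid cycle depended on the scaling. In glycolysis 11 of 19 tested genes were negative and 2 positive, with a median of -0.49, against 12% and 10.4% of all tested genes. In wild type 11 rose, where 15.4% of all tested genes did, and in *hlh-30(lf)* 10 fell, where 15.1% did. *ldh-1*, lactate dehydrogenase, rose from 33.1 and 33.6 to 122.1 and 149.9 normalised CPM in wild type and fell from 214 and 208 to 97.6 and 102 in *hlh-30(lf)*. The refed groups differed less than the starved groups, with an interaction of -3.11 (log2, SE 0.13, adjusted p = 4.4e-16). *tpi-1* and *enol-1*, triosephosphate isomerase and enolase, had -1.64 and -1.29. *gpd-2* had -1.16, but *gpd-2* and *gpd-3* are near-identical copies whose reads may be split uncertainly. In trehalose and glycogen metabolism 7 of 10 were negative and 1 positive, among them the trehalose synthase gene *tps-1* with -1.62. The tricarboxylic acid cycle had 6 negative and 2 positive interactions among 15 genes, with a median of -0.02, and 7 positive ones without normalization factors. *aco-2*, mitochondrial aconitase, went from 211 and 233 to 1373 and 1357 in wild type and from 389 and 455 to 491 and 495 in *hlh-30(lf)*, an interaction of -2.40 (log2, SE 0.12, adjusted p = 1.6e-14). *cts-1*, citrate synthase, had -1.17, and *dld-1* and *dlst-1*, which belong to the oxoglutarate dehydrogenase complex, had 0.77 and 0.67. *gdh-1*, glutamate dehydrogenase, fell from 7463 and 7839 to 1188 and 1243 normalised CPM in wild type and rose from 762 and 784 to 1574 and 1555 in *hlh-30(lf)*. All 4 refed samples lay between 1188 and 1574, and the interaction was 3.67 (log2, SE 0.11, adjusted p = 3.2e-19).

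**Figure D4:**
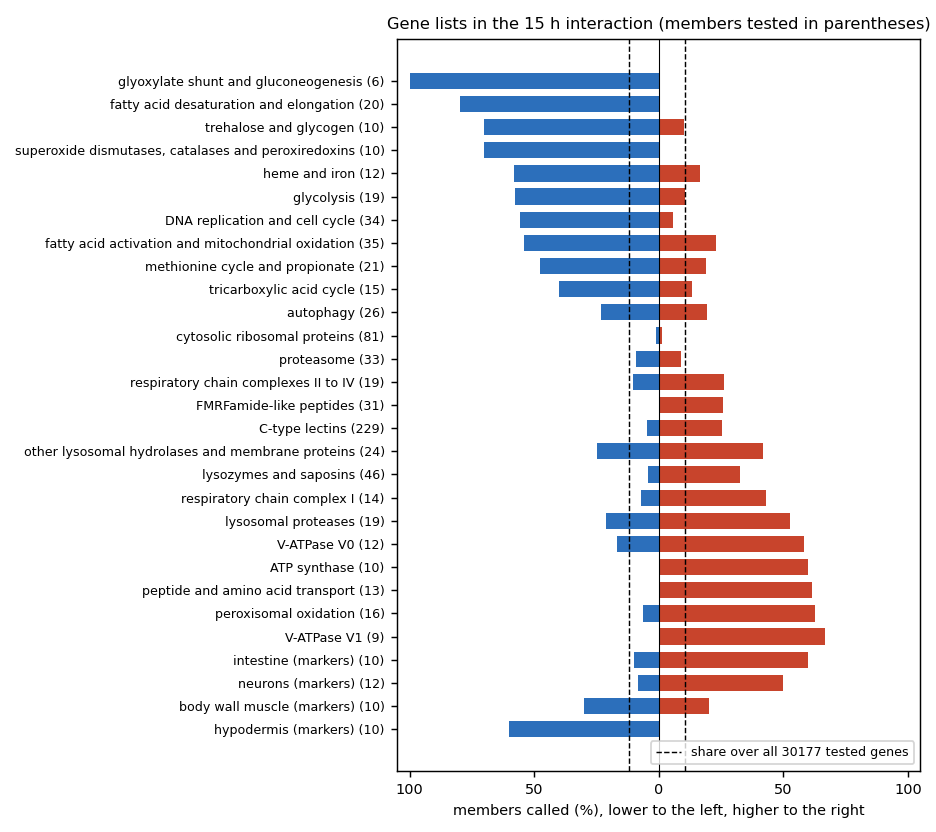
Share of the tested members of gene lists and marker lists called in the 15 h interaction (x axis, %), negative to the left in blue and positive to the right in red, with the numbers of tested members in parentheses. The list whose label names catalases holds no catalase gene. Dashed lines mark the shares over all tested genes, 12% negative and 10.4% positive. They include many scarce genes: after a filter on low counts 3859 of 17441 genes were negative and 3395 positive, larger shares. The 6 glyoxylate shunt and gluconeogenesis genes were all negative and 6 of the 9 V1 genes positive.

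Respiratory chain genes mostly rose in both genotypes, and some rose more in *hlh-30(lf)*. Complex I had 6 positive and 1 negative interaction among 14 genes, and complexes II to IV had 5 and 2 among 19. The shares were 10.4% positive and 12% negative over all tested genes. They were 3395 and 3859 of 17441 genes after the filter on low counts. In ATP synthase 6 of 10 were positive and 0 negative (0 also at an unadjusted p under 0.05), led by *atp-3* with 0.73 and *asg-2* with 0.68. The ATP synthase count fell to 2 without replicate 1 of *hlh-30(lf)* after CeMM or without replicate 2 of starved wild type, and to 3 in a fit of the 8 samples alone. The positive count for complexes II to IV fell to 2 without either of the same samples, and its negative count rose to 6 without replicate 1 of refed wild type. After 15 h all 10 ATP synthase genes were still lower in the mutant, against 12.4% of all tested genes. Of the genes on the mitochondrial chromosome 27 were tested and 1 was positive; the 12 protein genes of the mitochondrial list could not be matched by name and are not used here. *ant-1.1*, the main ADP/ATP carrier, rose in wild type from 9277 and 10261 to 14719 and 16746 normalised CPM and had an interaction of -0.54 (log2, SE 0.12, adjusted p = 7.8e-04).

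Transporters of peptides and amino acids rose more in *hlh-30(lf)*. Of 13 tested genes 8 were positive and 0 negative (0 also at an unadjusted p under 0.05), with a median of 0.69. *pept-1*, the peptide transporter of the gut, went from 45.8 and 50.3 to 214 and 227 normalised CPM in *hlh-30(lf)* and from 59.5 and 61.2 to 113 and 126 in wild type. The refed mutant samples were the highest of the 8, and the interaction was 1.21 (log2, SE 0.12, adjusted p = 4.6e-09). *slc-36.2*, of a family of amino acid transporters, had 1.62 and *aat-6*, an amino acid transporter subunit, 1.84.

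DNA replication and cell cycle genes mostly rose in wild type and were mostly higher in the starved mutant. Of 34 tested genes 19 were negative and 2 positive, the latter 0 without replicate 1 of starved wild type and 1 without 3 other samples in turn, with a median of -0.63. The interaction was negative for 12% and positive for 10.4% of all tested genes. In wild type 20 rose, where 15.4% of all tested genes did. In *hlh-30(lf)* 2 rose and 9 fell, where 15.6% of all tested genes rose and 15.1% fell. In starved worms 23 were higher in *hlh-30(lf)*, where 18.8% of all tested genes were. *mcm-4*, a subunit of the replicative helicase, had 14.5 and 16.18 normalised CPM in starved and 39.1 and 47.5 in refed wild-type worms, against 44.7 and 45.3 in starved and 37.6 and 32.2 in refed *hlh-30(lf)* worms. The starved wild-type samples were the lowest and the other 3 groups lay near each other, with an interaction of -1.86 (log2, SE 0.14, adjusted p = 5.3e-11). The other helicase genes *mcm-2*, *mcm-3*, *mcm-5*, *mcm-6* and *mcm-7* were all negative, from -1.81 for *mcm-2* to -0.86 for *mcm-7*. *rnr-1*, of ribonucleotide reductase, *pcn-1*, the sliding clamp PCNA, and *cyd-1*, cyclin D, had -1.70, -1.35 and -1.44. *cki-1*, a cyclin-dependent kinase inhibitor that acts in L1 arrest, was at 128 and 99.4 normalised CPM in starved *hlh-30(lf)* worms and at 26.5 and 26.2 after CeMM. In wild type it was at 27.2 and 27.1 when starved and at 21.7 and 21.4 after CeMM, and its interaction was -1.78 (log2, SE 0.15, adjusted p = 4.2e-10). Of the 26 genes of L1 arrest and insulin signalling 8 were negative and 4 positive, the latter between 2 and 7 when 1 sample was left out. *daf-16*, the FOXO factor of this pathway, had -0.75 and its inhibitor kinases *akt-1* and *akt-2* -0.99 and -0.96. Of the Rag GTPases that link nutrients to TOR, *raga-1* had -0.79 and *ragc-1* 0.39, and *daf-15*, the Raptor of worms, had 0.70. The insulin-like peptide gene *daf-28* rose in both, from 5.87 and 6.94 to 71.9 and 93.7 normalised CPM in wild type and from 49.5 and 48.4 to 128 and 137 in *hlh-30(lf)*, an interaction of -2.26 (log2, SE 0.15, adjusted p = 7.4e-12).

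**Figure D5:**
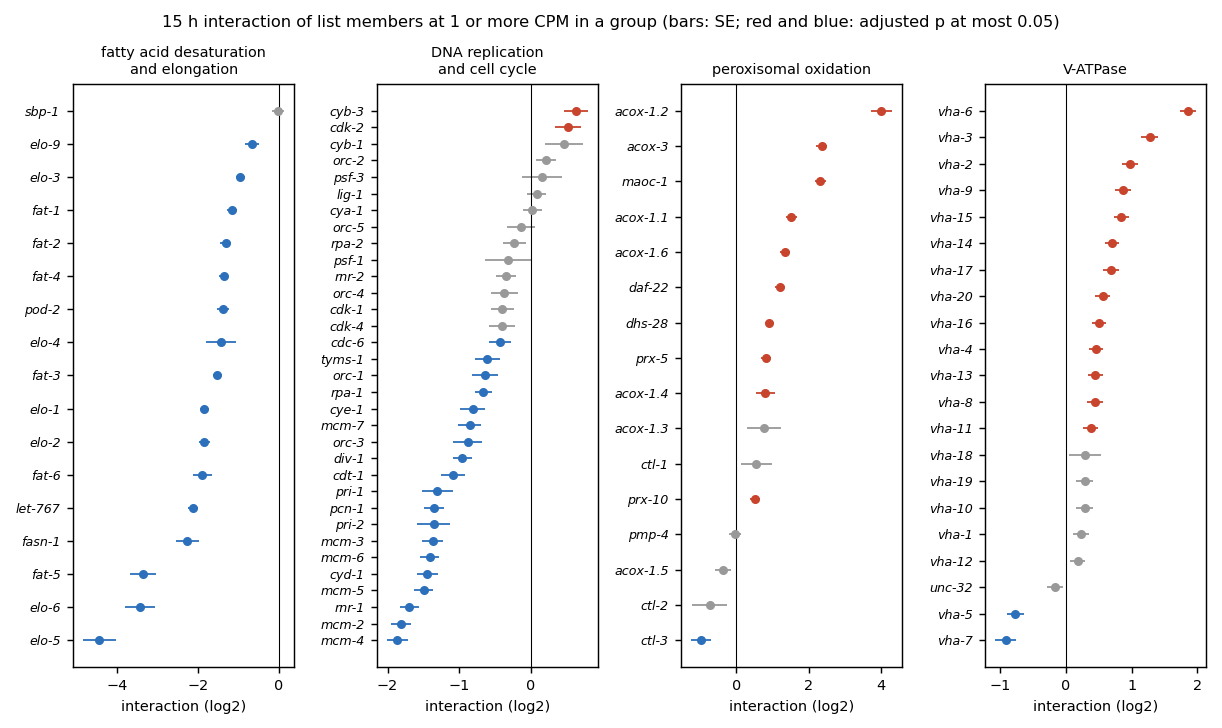
Interaction (x axes, log2) of the members of 4 gene lists that reached 1 normalised CPM in a group, with standard errors (bars); red and blue members passed an adjusted p of 0.05 and grey ones did not. Members of the fatty acid and replication lists lie mostly below 0, down to -4.44 for *elo-5*, and those of the peroxisomal and V-ATPase lists mostly above it, up to 4.01 for *acox-1.2*.

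Heme, one-carbon and antioxidant genes were more often negative. Of 12 heme and iron genes 7 were negative and 2 positive, against 12% and 10.4% of all tested genes. *hrg-1*, a heme importer, went from 24.1 and 21.6 to 57.5 and 65.5 normalised CPM in wild type and from 58.7 and 55.8 to 16 and 17.8 in *hlh-30(lf)*, an interaction of -3.18 (log2, SE 0.14, adjusted p = 1.5e-15). It moved in opposite directions, and the refed mutant samples were the lowest. The other heme-responsive genes *hrg-2*, *hrg-3* and *hrg-4* had -3.14, -3.25 and -2.49, and *hrg-7* had -2.34, whereas the metal transporter gene *smf-3* had 2.59 and the ferritin gene *ftn-2* 0.89. Of the 21 methionine cycle and propionate genes 10 were negative and 4 positive. *metr-1*, methionine synthase, had -1.57, *mthf-1*, methylenetetrahydrofolate reductase, -1.66, and *ahcy-1*, adenosylhomocysteinase, -1.15. On the other side, the phosphoethanolamine methyltransferase gene *pmt-1* had 1.76. *alh-8*, methylmalonate-semialdehyde dehydrogenase, fell in wild type from 7059 and 7364 to 1773 and 1977 normalised CPM and lay between 1625 and 1811 in all mutant samples, an interaction of 1.84 (log2, SE 0.11, adjusted p = 6.5e-13). Among 10 superoxide dismutase, peroxiredoxin and other antioxidant genes 7 were negative and 0 positive (1 at an unadjusted p under 0.05, and 2 called without replicate 2 of refed wild type). Catalase genes are not among these 10 and were counted above with peroxisomal oxidation. *sod-5*, a cytosolic superoxide dismutase, went from 104.6 and 84.3 to 1.26 and 1.95 in *hlh-30(lf)* and from 3.97 and 2.66 to 0.292 and 0.306 in wild type. *sod-3* and *sod-4* had -2.49 and -1.58, the latter with exons that overlap *ctr-9* on the other strand by 310 bases.

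The genes that moved in opposite directions included some with very different starved levels. *lon-1* (chromosome III, 5474478 to 5478382, plus strand), a secreted protein that limits body length, had 2.55 and 2.83 normalised CPM in starved wild-type worms and 36.9 and 41.6 after CeMM, against 508 and 437 in starved *hlh-30(lf)* worms and 67.2 and 65.1 after CeMM. All 4 groups were apart, with the starved groups as the extremes, and the interaction was -6.70 (log2, SE 0.16, adjusted p = 5.2e-21). *faah-2*, of the fatty acid amide hydrolase family, fell from 405 and 391 to 28.6 and 29.1 in *hlh-30(lf)* and rose from 25.7 and 30.7 to 59.7 and 64.4 in wild type, an interaction of -4.92 (log2, SE 0.19, adjusted p = 2.6e-12). *rhy-1*, a regulator of the hypoxia factor HIF-1, had -5.09, C06B3.6 -5.18, *clec-1* -3.37 and DH11.2 -3.25. The ribosomal RNA gene *rrn-3.1* came out among these with -3.52 (log2, SE 0.75, adjusted p = 0.0086), but its refed wild-type samples were at 40356 and 161169 normalised CPM, the second being the library with the high ribosomal RNA share, and without that library the value was -2.2. In the reverse direction, *dod-24*, a gene of innate immunity and of the DAF-16 response, fell from 25 and 22.6 to 1.4 and 2.54 in wild type and rose from 5.27 and 3.24 to 29.3 and 25.9 in *hlh-30(lf)*. The starved wild-type and refed mutant samples were near each other and above the rest, and the interaction was 6.30 (log2, SE 0.31, adjusted p = 1.0e-08). *spp-18*, of the saposin-like family, had 3.81, *clec-146*, a C-type lectin, 2.85, the collagen gene *col-160* 2.38 and the endoribonuclease gene *endu-2* 2.43.

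Among the other largest positive values, Y43C5A.3 had 264 and 245 normalised CPM in starved and 75.8 and 75.6 in refed wild-type worms, and 6.55 and 5.88 in starved and 95.5 and 113 in refed *hlh-30(lf)* worms, an interaction of 5.82 (log2, SE 0.16, adjusted p = 6.1e-20). For C14C6.5 the genotype difference among starved worms did not pass the test, and the refed mutant samples alone were high. It had 829 and 739 normalised CPM there and between 32.6 and 45.5 in the other 6 samples, with an interaction of 4.14 (log2, SE 0.25, adjusted p = 2.9e-07). *gst-20*, of the glutathione S-transferase family, fell in wild type from 567 and 599 to 24.9 and 29.3 and lay between 77.8 and 94.5 in the mutant samples. *irg-3*, an infection response gene, the cytochrome P450 gene *cyp-32B1* and the kappa-class glutathione transferase gene *gstk-1* rose in *hlh-30(lf)*, with interactions of 3.77, 4.06 and 3.71. Of the abundant transcripts, *asp-6*, an aspartyl protease, *unc-54*, muscle myosin, and *unc-15*, paramyosin, fell in wild type, with interactions of 1.49, 1.67 and 1.09. The long noncoding RNA *tts-1* fell in both genotypes, from 16157 and 14246 to 4204 and 3597 in wild type and from 49.3 and 37 to 19.9 and 18.9 in *hlh-30(lf)*. Its interaction of 0.81 (log2, SE 0.24, adjusted p = 0.032) lost the call when any of 3 samples was left out, with adjusted p from 0.10 to 0.13: replicate 1 of starved wild type, replicate 2 of refed wild type and replicate 2 of starved *hlh-30(lf)*.

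Innate immunity lists leaned to positive values, except for the chitinase-like and *pals* genes. Of 229 tested C-type lectin genes 58 were positive (25.3%) and 11 negative, the latter 5 without replicate 1 of starved wild type, and of 46 lysozyme and saposin genes 15 were positive (32.6%) and 2 negative, the latter 5 without replicate 1 of refed wild type and 4 without replicate 2 of starved *hlh-30(lf)*. Many lectin genes were near 0, since 80 of the 229 had a mean of at least 1 CPM over the 8 samples. *spp-5*, a pore-forming saposin-like protein of the gut, went from 31.8 and 28.6 to 117 and 108 normalised CPM in *hlh-30(lf)* and from 887 and 820.2 to 384 and 538 in wild type, an interaction of 2.79 (log2, SE 0.16, adjusted p = 3.9e-11). *spp-1* and the invertebrate-type lysozyme gene *ilys-5* had 2.80 and 3.98, while the negative members *lys-2* and *lys-3*, lysozyme genes, had -1.42 and -1.5. Of 63 chitinase-like and *pals* genes, which are known for their rise upon infection by microsporidia and Orsay virus or by oomycetes, 20 were negative and 13 positive. *pals-6* had 259.8 and 257 normalised CPM in starved *hlh-30(lf)* worms and 38.6 and 41.7 after CeMM, against 1.53 and 1.44 in starved and 1.93 and 1.90 in refed wild-type worms, an interaction of -3.05 (log2, SE 0.18, adjusted p = 3.5e-13). The summed level of the list was 1597 and 1553 in starved mutant and 399 and 429 in refed mutant samples, and between 269.7 and 364 in wild type.

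Genes of fat storage, lipid regulators and detoxification had values in both directions. Among 14 fat storage and lipid binding genes 5 were negative, or 3 without replicate 1 of starved wild type, and 1 positive. The intracellular lipid-binding protein genes *lbp-3*, *lbp-5* and *lbp-6* had -1.63, -2.15 and -2.94, and *plin-1*, the lipid droplet perilipin, -0.74. Of 16 transcription factors of lipid and nutrient responses 6 were negative and 3 positive. *mxl-3*, a factor known to repress lysosomal lipases, rose from 5.81 and 6.97 to 346 and 534 normalised CPM in wild type and from 2.90 and 2.67 to 53.8 and 35.2 in *hlh-30(lf)*, an interaction of -2.11 (log2, SE 0.41, adjusted p = 0.0051). Its refed mutant samples were above both starved groups and below the refed wild-type samples. The related factors *mml-1* and *mxl-1* had 0.82 and 1.3. Of 74 cytochrome P450 genes 22 were positive and 14 negative. Of 67 UDP-glucuronosyltransferase genes 15 were positive and 20 negative, and of 44 glutathione S-transferase genes 12 and 14. Over all tested genes 10.4% were positive and 12% negative, and after the filter on low counts 3395 and 3859 of 17441 genes. *ugt-46* had 3.45 and *ugt-66* -4.67, and *gst-4*, a gene induced by oxidative stress, had 3.12 and 4.80 normalised CPM in starved and 28.2 and 31.2 in refed wild-type worms against 36 and 46.0 in starved and 38.8 and 41.6 in refed *hlh-30(lf)* worms, an interaction of -2.94 (log2, SE 0.28, adjusted p = 7.3e-06). Of 9 genes in the chaperone list, which includes *hsf-1*, 3 were negative and 0 positive (1 at an unadjusted p under 0.05, 2 by edgeR's older method). The negative ones included the mitochondrial chaperonin gene *hsp-60* with -2.13 and *hsp-1*, an HSP70 family member, with -0.79. Of 32 aminoacyl-tRNA synthetase genes 9 were negative and 4 positive, and without normalization factors 5 were negative and 9 positive. *mars-1*, for methionine, had -1.86.

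Neuropeptide genes were more often positive, 8 of 31 FMRFamide-like genes with 0 negative (1 at an unadjusted p under 0.05, and 2 called without replicate 2 of starved *hlh-30(lf)*) and 20 of 71 other neuropeptide genes with 6 negative. For comparison, 10.4% of all tested genes were positive and 12% negative. After the filter on low counts 3395 of 17441 genes were positive and 3859 negative. Without normalization factors 15 FMRFamide-like and 34 other neuropeptide genes were positive. The counts of the other neuropeptide genes ranged from 13 to 26 and from 3 to 10 when 1 sample was left out, with the lowest positive count, 13, without replicate 2 of starved *hlh-30(lf)*. *flp-14* went from 159 and 127 to 232 and 237 normalised CPM in *hlh-30(lf)* and from 212 and 220.1 to 266 and 229 in wild type, an interaction of 0.52 (log2, SE 0.13, adjusted p = 0.0044). Of 81 cytosolic ribosomal protein genes 77 rose in wild type and 36 in *hlh-30(lf)*, against 15.4% and 15.6% of all tested genes. In the interaction 1 of the 81 was positive and 1 negative, with a median of -0.33. The summed levels of the 2 refed wild-type samples were 141797 and 194101. The negative count changed with the samples and the method, to 62 without replicate 1 of refed wild type, 18 without replicate 2 of starved *hlh-30(lf)* and 35 by edgeR's older method. Of 154 *col* cuticle collagen genes 26 were positive and 15 negative. Of 20 furrow and body shape collagen genes 0 were called by edgeR's newer method, with 1 in each direction at an unadjusted p under 0.05. By its older method 11 were positive, and by the newer method 4 were positive without replicate 2 of refed *hlh-30(lf)*.

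Markers of cell types are given next, and some of them also belong to the gene lists above. Among the intestine markers, *asp-1*, *cpr-1* and *spp-1* were already counted with the lysosomal proteases and saposins, so these results are not independent. Of 10 intestine markers 6 were positive and 1 negative, with a median of 1.80. Their summed level was 11726 and 13951 normalised CPM in starved and 4923 and 5585 in refed wild-type samples, and 1261 and 1194 in starved and 3761 and 3344 in refed *hlh-30(lf)* samples. In starved wild type most of that sum was *asp-1*. The esterase gene *ges-1* had an interaction of 2.41, the intermediate filament gene *ifb-2* 1.81, and *elt-2*, the GATA factor that defines the gut, -0.53. Of 10 hypodermis markers 0 were positive (0 also at an unadjusted p under 0.05) and 6 negative, with a median of -0.82. By edgeR's older method 2 were positive, and without normalization factors 1 was. Their summed levels ran from 717 to 1092 over the 8 samples. *lin-26* and *elt-1*, factors of the epidermis, had -1.32 and -1.86. Of 12 neuron markers 6 were positive and 1 negative, among them the neuropeptide processing genes *egl-3* with 0.57 and *egl-21* with 0.49, whereas *unc-119*, *rab-3* and *snt-1* had -0.06, -0.11 and 0.02 and did not pass the test. Body wall muscle markers had 2 positive and 3 negative of 10, the latter between 1 and 4 when 1 sample was left out. Germline markers summed to between 46.3 and 101 normalised CPM and sperm markers to at most 3.71. Markers of oocytes, embryos and adults had 6 positive and 0 negative (0 also at an unadjusted p under 0.05) of 15, with sums of 166 and 91.2 in starved wild-type samples and between 31.8 and 53.4 in the other 6. Whether these marker values reflect shifts between cell types was not tested. Nor was any part of such shifts in the lysosomal, V-ATPase, transport, immune and neuropeptide results.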

How the data were processed

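RNA-seq was carried out on whole L1 worms in 16 samples, 2 in each of 8 groups. Per the labels and the methods of the study, single-end reads were aligned by the authors to WBcel235 with STAR 2.0.4b, and reads that fell unambiguously on 1 gene were counted with featureCounts 1.45 of the Subread package, as the submitters' processing notes give them; the strand setting is not given in the sources used here. The authors deposited, for each of 46726 genes, the raw count, the CPM (counts per 1e6 reads on genes) and the RPKM (CPM per kilobase of exon). The deposited counts were tested here; the deposited CPM and RPKM were read but not tested. Names were found for 27879 of the 30177 genes with a count in any sample.

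One model with a coefficient per group was fitted to the counts of all 16 samples with edgeR 4.0.16 in R 4.3.3 (TMM factors, robust quasi-likelihood fit, the newer of its methods), and each comparison was a contrast with Benjamini-Hochberg adjustment over 30177 genes. Both edgeR methods, limma-voom and DESeq2 were run on simulated data, and the outcome of that run is not given here. In an earlier such test, the older method called too many unchanged genes, so the newer one was used for the main results. The standard error is the log2 fold change divided by the root of its F. The method of the study, limma-voom (limma 3.58.1), served as an alternative, as did DESeq2 1.42.0, the older edgeR method, other scalings, a filter on low counts, omission of ribosomal RNA genes, the 8 samples alone, a replicate block and omission of each sample.

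Genes are named if they belong to the gene or marker lists or by rank over all genes: the 12 largest values in each direction at a mean of 10 CPM or more and 1 CPM or more in each sample, the 5 largest without the 1 CPM rule, the 8 most opposed genes of at least 10 CPM in each sample, and the 6 most abundant called genes in each direction. The groups, lists and rules were chosen with earlier results of these data known. Genes of the list of 12 mitochondrial genome genes were not matched by name and are not used here. No sequences are shown, since no sequence table was used here.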

Additional observations from a re-analysis of the deposited data

Results flagged for a closer look

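A difference between the genotypes' responses, tested by the interaction term, brought up the genotype by CeMM 15 h interaction itself, with 3135 positive and 3616 negative genes, the 498 genes that rose in *hlh-30(lf)* and fell in wild type, and the 766 genes that did the reverse. Each gene below passed an adjusted p of 0.05 by edgeR's quasi-likelihood test, and was picked by its rank or, for *hlh-30*, as the targeted gene. The genes *F47B8.10*, *F42A10.6*, *F43C11.7*, *acs-2*, *fmo-2* and *scl-24* were picked without the rule of 1 CPM in each sample. Each of these was under 1 normalised CPM in at least 1 of the 8 samples. Exons of *F42A10.6*, at a mean of 29.7 normalised CPM, overlap those of *abcf-3*, at 157, on the other strand by 26 bases.

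The positive interactions, on the log2 scale, were *F47B8.10* 6.77, *dod-24* 6.30, *Y43C5A.3* 5.82, *F42A10.6* 5.67, *F43C11.7* 5.19, *gst-20* 4.57, *ZK1307.1* 4.22, *C14C6.5* 4.14 and *cyp-32B1* 4.06. Smaller positive values were *cpr-9* 4.05, *F47B8.8* 3.91, *spp-18* 3.81, *F01D5.1* 3.77, *irg-3* 3.77, *gstk-1* 3.71, *asp-1* 3.68, *gdh-1* 3.67 and *hpo-15* 3.05. The smallest were *clec-146* 2.85, *F54D5.3* 2.61, *endu-2* 2.43, *col-160* 2.38, *alh-8* 1.84, *unc-54* 1.67, *asp-6* 1.49, *unc-15* 1.09 and *tts-1* 0.81.

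The negative interactions were *acs-2* -7.39, *lon-1* -6.70, *fmo-2* -6.30, *scl-24* -5.76, *hacd-1* -5.29, *C06B3.6* -5.18, *rhy-1* -5.09, *icl-1* -4.96, *faah-2* -4.92 and *acer-1* -4.88. Next came *F46C5.10* -4.86, *F21C10.10* -4.76, *T01D1.4* -4.53, *oac-14* -4.45, *elo-5* -4.44, *F48D6.4* -3.89, *prx-3* -3.78, *rrn-3.1* -3.52, *clec-1* -3.37 and *DH11.2* -3.25. The values nearest to 0 were *hrg-1* -3.18, *eat-6* -1.12, *hlh-30* -0.88, *far-1* -0.80, *hsp-1* -0.79, *eef-1A.2* -0.54 and *ant-1.1* -0.54.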

How the results depend on the processing

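The 15 h interaction had 3135 positive and 3616 negative genes, and between 2630 and 3009 positive and between 3114 and 3680 negative genes when each of its 8 samples was left out in turn. DESeq2 gave 2945 and 3634, limma-voom 3288 and 3665, the older edgeR method 3444 and 3868, a filter on low counts 3395 and 3859 of 17441 genes, and the 8 samples alone 2755 and 3120. No gene was called in opposite directions in any alternative. Of 268 counts of genes under alternatives 264 stayed within 1.5 times. The other 4 were the genes lower in fed *hlh-30(lf)* worms, 1089 by the older edgeR method, and, without normalization factors, the genes higher and lower in *hlh-30(lf)* after 15 h of CeMM, 6275 and 2203, and the genes that fell in *hlh-30(lf)* and rose in wild type, 413. That setting moved the median interaction to 0.16. The genes that rose in *hlh-30(lf)* and fell in wild type numbered 391 to 493, and those that did the reverse 595 to 791, when 1 sample was left out. Of the genes named by rank, *eef-1A.2* lost its call without normalization factors (-0.34, adjusted p = 0.061), *rrn-3.1* in the 8 samples alone (-3.51, adjusted p = 0.094), and *tts-1* without 1 of 3 samples; the cause was not tested. None reversed. The counts of called members of the gene and marker lists were less stable: of 1734 such counts under alternatives 172 moved by over 1.5 times, in 45 of 102 list counts, 26 of them without normalization factors, 16 by the older edgeR method and 17 without replicate 2 of starved *hlh-30(lf)*. Without normalization factors the positive members of the autophagy, heme and iron, and L1 arrest lists were 8, 4 and 7, and the negative members of the other lysosomal, antioxidant and C-type lectin lists 2, 4 and 6. Replicate numbers are shared between groups. The general statistical methods of the study describe replicates as run on separate occasions together with their controls, and the labels do not tie the numbers to such occasions. The deviations of same-numbered samples correlated with r from -0.32 to 0.18 over the 6 pairs of groups. With a replicate block 3111 genes were positive and 3566 negative, and of the list counts only the negative body wall muscle markers moved by over 1.5 times, from 3 to 1. Reads of *rrn-3.1*, *eef-1A.2* and *gpd-2*, which have near-identical copies, may be split uncertainly. With 2 samples a group, p values rest on a spread estimated across all 8 groups.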
